A study of Mus with 5 samples.

Results

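The transcripts described here are those of *Gata4*, *Gata6*, *Hand1*, *Hand2* and *Mef2c*, which encode transcription factors of the heart muscle programme. They were selected by their Ensembl identifiers, and all 5 were found among the 12857 genes with values. RNA came from E14.5 mouse hearts with the atria removed, so that ventricles and valves were measured together. Each library was a pool of 4 embryos. The transgenic group (*Nkx2.5*Cre/+;*Bmp2*tg/+, 3 pools) carried Cre at the *Nkx2.5* locus, active in heart precursors and their descendants, and a *Rosa26* allele in which Cre removal of a stop cassette lets a CAG promoter drive *Bmp2* and eGFP. The control group was labelled WT (2 pools). The *Nkx2.5*Cre allele is named for the transgenic pools and not for the WT pools, and whether the WT embryos carried it is not given. A cross described for this line used mothers with Cre on both alleles, whose non-transgenic young would carry Cre too. If the WT pools lacked Cre, effects of that allele and of *Bmp2* cannot be told apart. A further WT pool was left out by the authors because it did not group with the other WT pools.

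GATA proteins are zinc finger factors that bind GATA motifs, and Gata4 and Gata6 act together in cardiac mesoderm, myocardium and endocardium. Hand1 and Hand2 are basic helix-loop-helix factors that pair with E proteins. Hand1 is known for the left ventricle and outflow tract, and Hand2 for the right ventricle, the endocardium and the cushions. Mef2c is a MADS-box factor of muscle genes. Bmp2 is a secreted signal, normally made in the myocardium of the atrioventricular canal, that acts through Smad proteins, and BMP signalling is known to act upstream of Gata4 and Hand2 in the embryo.

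The libraries held between 7427905 and 10564780 reads over the genes listed, and values are CPM, read counts relative to a scaled library size. A count of 0 would allow up to 3 reads, or 0.287 to 0.402 CPM, and every factor was far above that limit. *Bmp2* (ENSMUSG00000027358) was at 23.0, 27.1 and 23.3 CPM in transgenic pools 1, 2 and 3 and at 14.1 and 10.2 CPM in WT pools 1 and 2, a log2 fold change of 0.99 (standard error, SE, 0.13, adjusted p = 0.000712 by limma), so the groups were apart in the direction of the labels. Transgenic and endogenous *Bmp2* reads were not told apart. The genotypes were compared by limma on the log2(CPM + 0.5) scale, and the p-values were Benjamini-Hochberg adjusted across the whole table. An adjusted p at or under 0.05 is called a change. The pools are described as separate sets of embryos, and every pair of libraries of a genotype differed by more than read sampling (chi-square per gene of 2.24 to 3.96, where sampling alone gives about 1). The lowest value, 2.24, was between WT pools 1 and 2, kept after the authors left out an unlike WT pool. The p-values take no account of that choice, which can make the WT spread too small.

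*Hand2*, *Gata4* and *Hand1* rose in transgenic hearts, by 24.8%, 17.1% and 41.5% on the log2(CPM + 0.5) scale. *Gata6* was higher by 15.8% but did not pass the test, and *Mef2c* was lower by 6.22% with overlapping groups. So 3 of the 5 factors were called and all 3 were higher. Over all genes, 2.82% were called in either direction and 1.22% were called higher. For 4 of the 5 factors every transgenic pool lay above both WT pools, a pattern that 17.7% of all genes showed. The median log2 fold change of the 5 factors was 0.23, and that of all genes was 0.0045. The factors were chosen with earlier results of these data known, so nothing is read from these shares and medians about them as a set. In these bulk samples, a larger share of cells with a transcript and more of it per cell cannot be told apart.

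**Figure D1:**
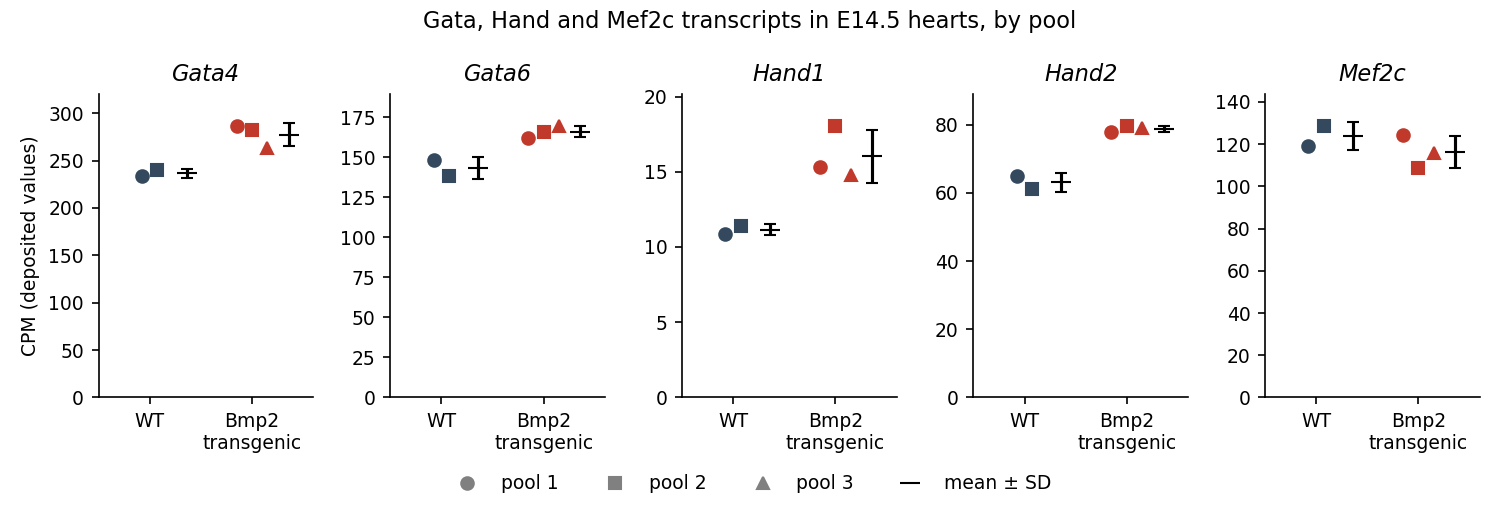
Values of the 5 factors in each pool, in CPM on axes that start at 0. Points are pools (WT dark, transgenic red, shapes for pool numbers) and the bar beside them is the mean with its SD. For *Gata4*, *Gata6*, *Hand1* and *Hand2* every transgenic pool lies above both WT pools, by at least 23.4, 14.2, 3.36 and 12.8 CPM, while the groups overlap for *Mef2c*.

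*Gata4* (ENSMUSG00000021944) lies on chromosome 14 of GRCm38, from 63198914 to 63271712, and encodes the GATA factor most used as a marker of cardiac specification. It was at 286, 282 and 264 CPM in transgenic pools 1, 2 and 3, and at 233 and 240 CPM in WT pools 1 and 2. The groups did not overlap, and transgenic pool 3 was the lowest of its group. These values rest on 1792 to 2995 reads per library, and in each of the 6 pairings of a transgenic with a WT pool the 95% Poisson intervals of the counts were apart. Means were 277.5 ± 12.2 CPM (SD, n = 3) and 236.8 ± 4.78 CPM (SD, n = 2). The log2 fold change was 0.23 (SE 0.06, adjusted p = 0.0411 by limma), with a 95% interval of 0.11 to 0.35. The spread between transgenic pools, a coefficient of variation of 4.39%, was larger than the 1.97% that read counting alone gives.

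The call of *Gata4* rested on all pools but one. It was lost without transgenic pool 1 (limma adjusted p = 0.102), transgenic pool 2 (0.0826), WT pool 1 (0.307) or WT pool 2 (0.241), and was kept without transgenic pool 3 (0.0186). Over these 5 fits its log2 fold change stayed between 0.20 and 0.26.

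*Gata6* (ENSMUSG00000005836, chromosome 18, 11052510 to 11085636) encodes the GATA factor that shares cardiac tasks with Gata4. It was at 162, 166 and 169 CPM in transgenic pools 1, 2 and 3 and at 148 and 138 CPM in WT pools 1 and 2. Again all transgenic pools were above both WT pools, but here pool 3 was the highest. The coefficient of variation between transgenic pools, 2.16%, was below the 2.55% that read counting alone gives, so their order is not resolved. The means of 165.9 ± 3.58 CPM (SD, n = 3) and 143.2 ± 6.92 CPM (SD, n = 2) gave a log2 fold change of 0.21 (SE 0.06, adjusted p = 0.0591 by limma), with an interval of 0.09 to 0.33. By unadjusted p *Gata6* ranked 447 of 12857 genes, and 362 genes were called. *Gata4* ranked 313 and *Hand1* 345, so these lay close to that limit on either side of it. Counting intervals were apart in 5 of the 6 pairings. The RefSeq table lists the non-coding *Gata6os* over the first 58 bases of the *Gata6* span, and no strand setting is given for the counting, so reads of that stretch are uncertain.

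*Hand2* (ENSMUSG00000038193, chromosome 8, 57320983 to 57324517) had the smallest adjusted p of the 5. It was at 77.8, 79.6 and 78.9 CPM in transgenic pools 1, 2 and 3 and at 64.9 and 61.1 CPM in WT pools 1 and 2. The transgenic pools were nearly level with each other, with a coefficient of variation of 1.16%, and none reached down to the WT values. That spread was below the 3.71% that read counting alone gives. The difference between the means, 78.7 ± 0.914 CPM (SD, n = 3) and 63.0 ± 2.68 CPM (SD, n = 2), was a log2 fold change of 0.32 (SE 0.06, adjusted p = 0.0132 by limma), with an interval of 0.18 to 0.46. Counting intervals were apart in 6 of 6 pairings. The call was kept without any transgenic pool in turn (limma adjusted p = 0.0258 to 0.0322). It was lost without WT pool 1 (0.113) or WT pool 2 (0.216), where the lone WT pool was assumed to vary as the transgenic pools do. The non-coding *Hand2os1* ends 123 bases before *Hand2* and does not overlap it in the RefSeq table.

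*Hand1* (ENSMUSG00000037335, chromosome 11, 57828713 to 57832147) had the largest fold change and the fewest reads. It was at 15.3, 18.0 and 14.8 CPM in transgenic pools 1, 2 and 3 and at 10.9 and 11.4 CPM in WT pools 1 and 2. The transgenic pools were all above the WT pools, with pool 2 the highest. They held 160, 168 and 118 reads, and the WT pools 103 and 85 reads. Means were 16.0 ± 1.76 CPM (SD, n = 3) and 11.1 ± 0.356 CPM (SD, n = 2). The log2 fold change was 0.50 (SE 0.13, adjusted p = 0.0463 by limma), with an interval of 0.23 to 0.77, and 1.06% of all genes had a larger one. Read counting alone gives a coefficient of variation of 10.3% in WT pools, more than the 3.20% seen between them. Counting intervals were apart in only 2 of the 6 pairings. The call of *Hand1* was lost without transgenic pool 1 (limma adjusted p = 0.0748), transgenic pool 2 (0.183), WT pool 1 (0.278) or WT pool 2 (0.224). Without transgenic pool 2 its log2 fold change was 0.42, the lowest of the 5 such values. The non-coding *Gm32915*, which starts at 57832108, shares 40 bases with the *Hand1* span in the RefSeq table. In the study's gene table *Hand1* ends further on, at 57832818, so more bases are shared there. No strand setting is given for the counting, so reads of that stretch are uncertain.

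*Mef2c* (ENSMUSG00000005583, chromosome 13, 83504017 to 83667079) was the only one of the 5 with a lower mean in transgenic than in WT pools. It was at 124, 109 and 116 CPM in transgenic pools 1, 2 and 3 and at 119 and 129 CPM in WT pools 1 and 2. Transgenic pool 1 lay between the WT pools and the other two transgenic pools lay below both. Means were 116.2 ± 7.75 CPM (SD, n = 3) and 123.8 ± 6.64 CPM (SD, n = 2). The log2 fold change was -0.09 (SE 0.07, adjusted p = 0.501 by limma), and its 95% interval ran from a fall of 15.0% to a rise of 3.49%. With 926 to 1298 reads per library, counting intervals were apart in 1 of the 6 pairings. In every alternative setting the fold change stayed negative, from -0.15 to -0.04, and was not called (limma, edgeR or DESeq2 adjusted p = 0.317 to 0.899). The *Mef2c* span holds the non-coding *Gm52043* and *Gm52044*, which take up 32293 and 26034 of its bases.

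**Figure D2:**
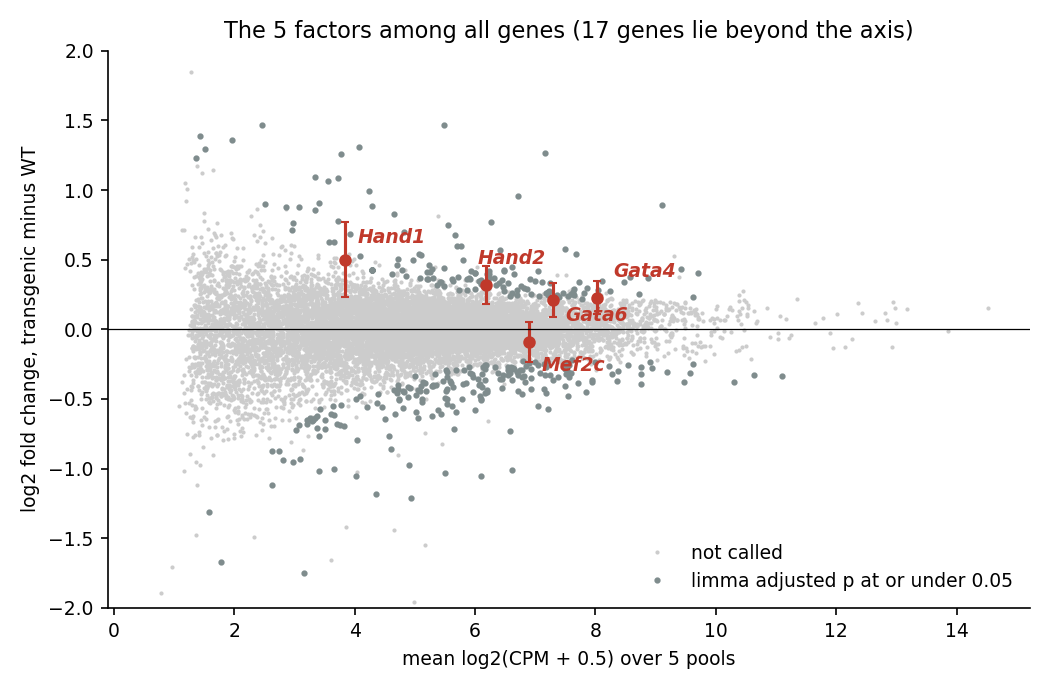
Log2 fold change (transgenic minus WT) against mean log2(CPM + 0.5) for all genes, with 17 genes beyond the axis. Dark grey points are called genes and the red points with 95% limma intervals are the 5 factors, of which *Hand1* is the lowest in CPM and has the widest interval, and *Mef2c* is the only one whose interval includes 0.

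Other tests differed on *Hand1*. On the whole reads recovered from the CPM values, edgeR's exact test called *Gata4*, *Hand1* and *Hand2* (adjusted p = 0.0264, 0.0256 and 0.00296), where 1.53% of all genes were called higher. edgeR's quasi-likelihood test called the same 3 factors (adjusted p = 0.0380, 0.0430 and 0.0164, with 1.29% of genes called higher). DESeq2 called *Gata4* and *Hand2* (adjusted p = 0.0345 and 0.0436, with 0.911% of its tested genes called higher) but not *Hand1* (adjusted p = 0.177). *Gata6* was not called in any of the 16 alternative settings, with adjusted p-values from 0.0516 with edgeR's quasi-likelihood test to 0.416 with limma without WT pool 2. *Hand2* was called in 13 of them, *Gata4* in 10 and *Hand1* in 8. These 16 are not all separate checks. The filter removed 0 genes, so the fit without it was the main fit. The pool number as a block gave the same fold changes as leaving out transgenic pool 3. *Gata4*, *Gata6*, *Hand1* and *Hand2* are on the study's own list of changed genes, and *Mef2c* is not. The authors made that list with edgeR at an adjusted p under 0.05.

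The scaling of the libraries moved the calls near the threshold. With every library rescaled to the same total, *Gata4* had a log2 fold change of 0.21 and *Hand1* of 0.48 (limma adjusted p = 0.0502 and 0.0526), and only *Hand2* was called (0.0220). That rescaling moved the median of all genes from 0.0045 to -0.014 on the log2 scale. It also moved the share of calls that were higher from 43.4% to 33.2%. After quantile normalization *Hand1* was not called (limma adjusted p = 0.0520). Under no setting did any of the 5 factors change direction.

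**Figure D3:**
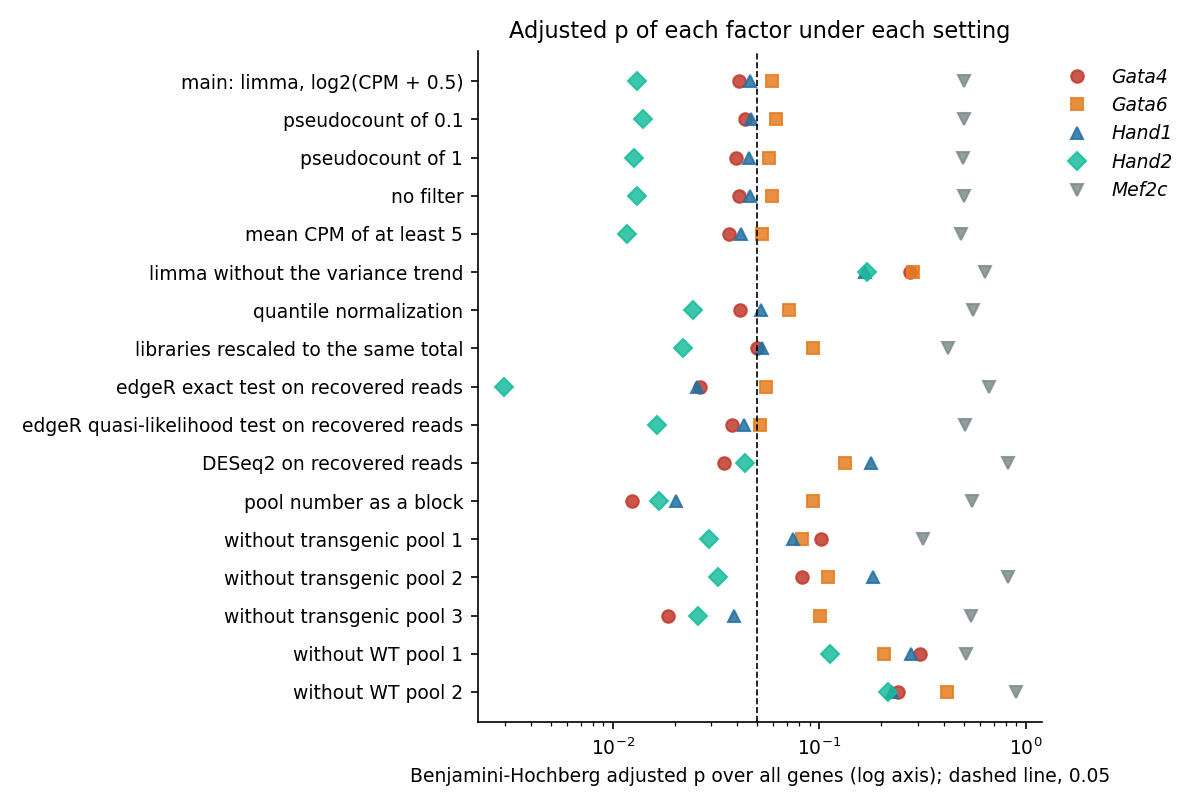
Adjusted p of each factor (log axis) under the reported setting and its 16 alternatives, with 0.05 dashed. *Hand2* stays left of the line in 13 of the alternatives, *Gata4* and *Hand1* sit near it and cross it in 6 and 8 of them, and *Gata6* and *Mef2c* stay right of it throughout.

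Related factors were then compared within each pool, where the scaling of the library cancels. The question was whether partners moved by unequal amounts. *Gata4* CPM divided by *Gata6* CPM was 1.76, 1.70 and 1.56 in transgenic pools 1, 2 and 3 and 1.58 and 1.74 in WT pools 1 and 2, so the groups overlapped. The log2 ratio differed by 0.015 between genotypes, within SDs of 0.093 and 0.099. The sum of both GATA transcripts was 449, 448 and 433 CPM in transgenic pools 1, 2 and 3 and 382 and 379 CPM in WT pools 1 and 2, higher by 16.7%. The spread of this sum among transgenic pools, 443.4 ± 8.96 CPM (SD, n = 3), was smaller than that of *Gata4* alone. The order of *Gata6* among transgenic pools was within read counting, so nothing is read from this.

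The *Hand1* to *Hand2* CPM ratio was 0.197, 0.227 and 0.187 in transgenic pools 1, 2 and 3 and 0.168 and 0.186 in WT pools 1 and 2. The lowest transgenic and the higher WT pool were nearly level, and the groups did not overlap in CPM ratio but did on the log2(CPM + 0.5) scale. The log2 ratio was higher by 0.18 in transgenic pools, with SDs of 0.14 (n = 3) and 0.11 (n = 2), so the larger fold of *Hand1* was not told apart from that of *Hand2*. As a share of the reads of both *Hand* genes, *Hand1* took 16.4%, 18.5% and 15.8% in transgenic pools 1, 2 and 3, against 14.4% and 15.7% in WT pools 1 and 2. The exact binomial 95% intervals of these shares all overlapped, the widest running from 12.7% to 19.1% in WT pool 2. Such intervals hold counting error alone and not differences between pools. They would be too narrow even for that error if reads copied by PCR were counted.

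The CPM ratio of *Gata4* to *Mef2c* was 2.31, 2.60 and 2.28 in transgenic pools 1, 2 and 3 and 1.96 and 1.87 in WT pools 1 and 2, with no overlap between groups. The log2 ratio was higher by 0.32 in transgenic hearts, against SDs of 0.11 (n = 3) and 0.048 (n = 2). Two-sided exact permutation tests of the 3 ratios gave p = 0.8 for *Gata4*/*Gata6*, 0.3 for *Hand1*/*Hand2* and 0.1 for *Gata4*/*Mef2c*, the smallest p that 3 pools against 2 allow. Adjusted over the 3 ratios these became 0.8, 0.45 and 0.3, so no ratio passed 0.05, which the design cannot reach. Levels are not compared between genes beyond such changes of ratio, because no transcript lengths were used.

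**Figure D4:**
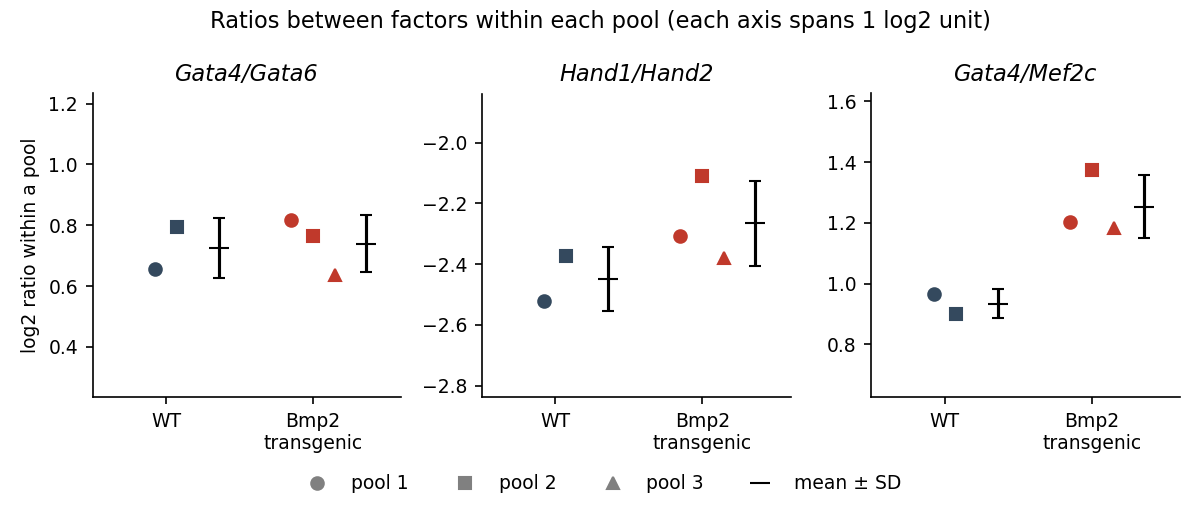
Log2 ratio of *Gata4* to *Gata6*, *Hand1* to *Hand2* and *Gata4* to *Mef2c* within each pool, each axis spanning 1 log2 unit. Points are pools and bars the mean with its SD. The groups are apart only for *Gata4*/*Mef2c*, by 0.32 between the means.

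Genes whose profile over the 5 pools was most like each factor were found among the genes with a symbol. Likeness was the root mean square difference of centred log2(CPM + 0.5) values, a description over 5 libraries. Symbols came from the study's list of genes that it found changed in these libraries, 405 of the 12857, so nearer genes without a symbol could not be named. In all, 1 gene lay nearer to *Gata4* than its first named neighbour and 5 lay nearer to *Gata6*, while for *Hand1* and *Hand2* none did. The second named neighbours were less close, with 12 genes nearer to *Gata4*, 112 nearer to *Gata6* and 12 nearer to *Hand2*. *Gata4* was nearest to *Smyd2*, a lysine methyltransferase (difference 0.013), and *Tagln2* (0.025). *Hand2* was nearest to *Rbm42*, an RNA-binding protein (0.015), and *Alcam*, a cell adhesion molecule (0.036). For *Gata6* the nearest were *Maz*, a zinc finger factor (0.024), and *Hey2*, a Notch target and compact myocardium marker (0.043).

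*Hand1* was nearest to *Mdga1* (0.036) and *Edn1*, which encodes endothelin-1 (0.044), and 0 and 1 of all genes were nearer. These neighbours were also highest in transgenic pool 2, where *Mdga1* was at 41.4 CPM and *Edn1* at 14.3 CPM. *Edn1* was at 13.3 CPM in transgenic pool 1. The neighbours were picked for likeness over these same pools, so nothing is read from the shared order. *Mef2c* had no close match among named genes, since 1122 genes of all were nearer than its first, *Arhgap31* (0.067), and 1542 were nearer than its second, *Usp13* (0.075). The named genes come from a list of changed genes that lacks *Mef2c*, so nothing about *Mef2c* is read from this distance. Among the factors themselves *Gata6* and *Hand2* were the most alike (0.055), and *Hand1* and *Mef2c* the least (0.33).

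**Figure D5:**
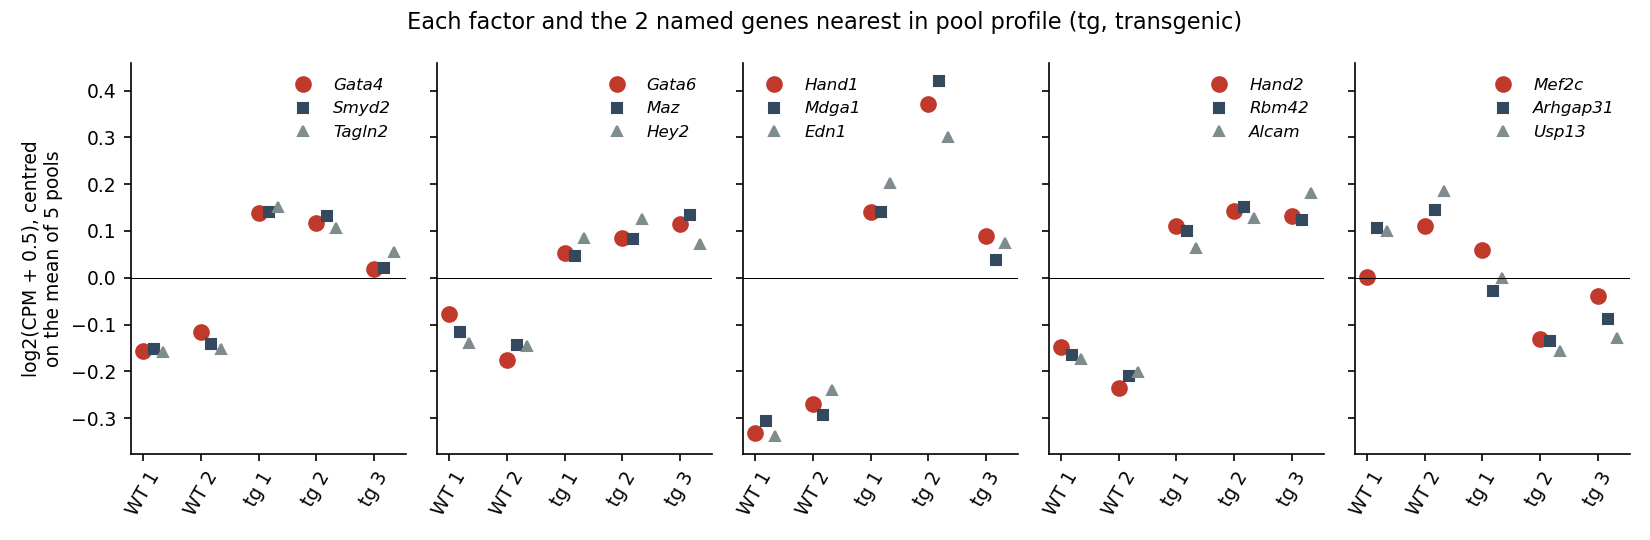
Centred log2(CPM + 0.5) values by pool for each factor (red circles) and the 2 named genes nearest to it in profile (squares and triangles, shifted sideways). *Hand1* and its neighbours, picked for likeness over these same pools, are highest in transgenic pool 2. *Mef2c* lies further from its neighbours than the other factors do, where all neighbours come from a list of changed genes that lacks *Mef2c*.

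Of the proteins that bind or work with these factors, 4 of 18 listed genes had a symbol paired with an identifier, all through the study's own list of changed genes. Their counts are therefore not independent evidence of a direction. *Tbx20*, a T-box factor that works with Gata4, was at 948, 954 and 896 CPM in transgenic pools 1, 2 and 3 and at 670 and 739 CPM in WT pools 1 and 2, a rise of 0.41 on the log2 scale (limma adjusted p = 0.00162). *Smarcd3*, the Baf60c subunit of chromatin remodelling complexes that helps Gata4 and Tbx5 act, rose by 0.43 (limma adjusted p = 0.00282). *Myocd*, a coactivator of serum response factor, fell by 0.37 on the log2 scale (limma adjusted p = 0.0136). *Tead1* is listed under a pair of identifiers, which fell by 0.39 and rose by 0.34 on that scale, and both are uncertain because sharing of reads between them was not measured. In all, 3 of these 5 identifiers were called higher and 2 lower, beside 2.82% of all genes called in either direction. Nothing is read from this, since only genes on a list of changed genes could be named. Without WT pool 1 none of the 5 was called (limma adjusted p = 0.0893 to 0.227), and without WT pool 2 *Smarcd3* and *Myocd* were not (0.102 and 0.216).

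Known heart targets of the factors gave 6 of 19 genes with a symbol, of which 2 rose and 4 fell. These too could be named only through the study's list of changed genes, so that nothing is read from their share beside the 2.82% of all genes called. *Myl7*, the atrial myosin light chain, rose from 384 and 373 CPM in WT pools 1 and 2 to 653, 869 and 617 CPM in transgenic pools 1, 2 and 3 (log2 fold change 0.90, limma adjusted p = 0.000166). *Irx4*, a ventricular homeobox gene, rose by 0.33 on the log2 scale. *Gja5*, the connexin of trabeculae, fell by 0.55, *Cited1*, a transcriptional coregulator, by 0.46, *Slc8a1*, the sodium-calcium exchanger, by 0.39 and *Ckm*, muscle creatine kinase, by 0.27. Their limma adjusted p-values lay between 0.00134 and 0.0232. Without WT pool 1, *Myl7* alone of the 6 was called, and without WT pool 2 *Myl7* and *Cited1* were. DESeq2 did not call *Slc8a1* (adjusted p = 0.0816) or *Gja5* (adjusted p = 0.0925) and called the other 4.

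The list of BMP signal readouts holds 6 genes, of which 5 had a symbol through that same list of changed genes. They include the transgene *Bmp2* itself, described above. *Id2*, an inhibitor of basic helix-loop-helix factors, and the inhibitory Smad genes *Smad6* and *Smad7* rose as well (log2 fold changes of 0.96, 0.75 and 0.54, limma adjusted p = 1.26e-06, 0.000626 and 0.00206). With *Bmp2* this makes 4 called higher, beside 1.22% of all genes, and the choice of symbols again sets that share. *Id3*, another BMP target, had a log2 fold change of 0.29 (limma adjusted p = 0.0676). *Smad7* was not called without WT pool 1 (limma adjusted p = 0.0525) or WT pool 2 (0.0635), and the other 3 calls were kept. Other Gata, Mef2 and Twist-family genes gave 0 of 12 with a symbol and are not analysed here.

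Cell type markers could be checked only in part, with 4 of 39 listed symbols paired and none of the 4 at 0. These 4 too could be named only through the study's list of changed genes. Nothing is therefore read from their changes about the mix of cells. The cardiomyocyte gene *Ryr2*, the ryanodine receptor, ranged from 425 to 480 CPM among transgenic pools and from 548 to 556 CPM among WT pools, a fall of 0.28 on the log2 scale (limma adjusted p = 0.0175). Of 6 endothelial markers, *Kdr*, a VEGF receptor, fell by 0.46 (limma adjusted p = 0.00286) and *Cdh5*, VE-cadherin, had a log2 fold change of -0.25 (limma adjusted p = 0.0563). Their summed level ran from 316 to 376 CPM in the transgenic group and from 439 to 447 CPM in the WT group. The epicardial gene *Tbx18*, 1 of 5 markers of that layer, rose by 0.37 (limma adjusted p = 0.00476). The calls of *Ryr2*, *Kdr* and *Tbx18* were lost when WT pool 1 or WT pool 2 was left out (limma adjusted p = 0.0549 to 0.245). The part of these shifts in the values of *Gata4*, *Gata6*, *Hand1* and *Hand2*, which heart cells other than myocytes also use, was not tested. Of the atrial list, 0 of 5 genes had a symbol, but *Myl7*, an atrial gene given among the targets, was higher in all transgenic pools although atria were removed. Both *Myl7* and *Hand1* were highest in transgenic pool 2. The counting intervals of *Hand1* overlapped among the transgenic pools, so nothing is read from this shared order. The part of atrial tissue in the values of the factors was not tested. Markers of cushion mesenchyme, red blood cells and neural crest are not analysed here.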

How the data were processed

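RNA was pooled from hearts without atria (4 embryos per pool) and sequenced as single-end reads. Per the labels and methods, the authors trimmed adaptors with cutadapt, estimated gene counts by RSEM against Ensembl genes of GRCm38, and normalised them with edgeR. They deposited CPM values of a scaled library size for 12857 genes, and 0 columns of values were left unused.

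In each library 100% of values were whole multiples of the worth of 1 read (tolerance 0.01 reads), which gave the reads back. The main comparison was limma 3.58.1 (R 4.3.3) on log2(CPM + 0.5) with a variance trend, no covariates and a filter (CPM of at least 1 in at least 2 libraries) that removed 0 genes. edgeR 4.0.16 and DESeq2 1.42.0 were run on the recovered reads. Scripts were tested on simulated data with changes larger than those of the 5 factors, so recovery of changes as small as theirs was not tested. Alternatives left out the filter, asked for a mean CPM of at least 5, used a pseudocount of 0.1 or 1, dropped the variance trend, applied quantile normalization, rescaled libraries to equal totals, used the count tests, added the pool number as a block, or left out a pool.

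The factors and lists were chosen with earlier results of these data known. The text names all 5 factors, *Bmp2*, the 2 nearest named genes of each, and up to 6 called genes per list. Symbols came from the study's gene table (405 genes) and, for *Mef2c*, from the identifier given. Positions are from the RefSeq table of GRCm38.p6, which pairs 0 genes with Ensembl identifiers, and for *Hand1* the end in the study's gene table is also given. The authors' own fold changes and p-values in that gene table were not used.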

Additional observations from a re-analysis of the deposited data

How the results depend on the processing

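Of the 5 factors, 3 were called, and none of the 11 alternatives over all pools called more. Among these 11, quantile normalization and DESeq2 called 2 of the factors and lost *Hand1*. Limma without the variance trend called 0 of them and libraries rescaled to the same total called 1, and the 5 fits without a pool called 0 to 3 (0 without WT pool 1 or WT pool 2, 1 without transgenic pool 1 or 2). Over all genes 362 were called, 157 of them higher. The number was 10 without the variance trend (all 10 higher), 229 with DESeq2 (99 higher), and 43 to 464 with a pool left out (33 to 205 higher), of which the fits without transgenic pool 2, WT pool 1 and WT pool 2 gave 226, 45 and 43. The 5 identifiers of partner proteins, 6 known targets and 4 BMP readouts that were called fell to 0 each without the variance trend. Without a pool, 0 to 5 partner identifiers and 1 to 6 targets were called. With a pool left out, differences in log2 ratio ranged from -0.054 to 0.085 for *Gata4*/*Gata6*, 0.10 to 0.26 for *Hand1*/*Hand2* and 0.26 to 0.36 for *Gata4*/*Mef2c*. The cause was not tested. Leaving out a WT pool leaves 1 WT pool, so these tests rest on fewer samples.

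The pool numbers mark no shared litter or day in the labels, and same-numbered pools did not deviate together (correlations across genes of -0.026 for number 1 and -0.050 for number 2). With the pool number as a block, 655 genes were called (289 higher). The block gave *Gata4*, *Hand1* and *Hand2* log2 fold changes of 0.26, 0.56 and 0.32 (limma adjusted p = 0.0124, 0.0203 and 0.0167), *Gata6* 0.20 and *Mef2c* -0.09 (0.0935 and 0.551), and changed no call of these 5. Pool number 3 had no WT pool, so transgenic pool 3 added nothing to these fold changes. They equal those without transgenic pool 3, and the block is not a separate check of them. Depth limits *Hand1* most, with 85 to 168 reads per library.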
